A study of Mus musculus with 12 samples.

Results

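The Wnt feedback and target genes are 10 genes: Axin2, Nkd1, Nkd2, Lef1, Tcf7, Sp5, Lgr5, Rnf43, Znrf3 and Apcdd1. Every probe that the array annotation names after one of them was taken, which gave 17 of the 41174 probes on the array. Of these 17, 14 were kept for testing, at least 1 for each of the 10 genes. A probe was kept where KO RNA, or WT RNA, was well above background on 6 or more of the 12 arrays. The same filter kept 35562 of the 41174 probes. The 10 genes stand among 22410 gene names on the array, of which 20597 had a kept probe. The genes were chosen by name and not by their values, but with earlier results of these data known.

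Canonical Wnt signalling turns on the fate of β-catenin. Without a Wnt ligand, a destruction complex built on Axin and APC marks β-catenin for removal; with one, β-catenin reaches the nucleus, binds TCF and LEF factors, and switches on target genes, several of which feed back to dampen or strengthen the signal. In the lung the pathway acts in progenitors during development and in the stem cell function of alveolar type 2 cells, and in tumours target genes such as Axin2 serve as a readout of it.

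The arrays compared messenger RNA from lung tumours of mice of C57/129 background. All tumours, KO and WT alike, came from animals with the conditional K-ras LSL-G12D allele, whose airways received a Cre-carrying adenovirus at 6 to 12 weeks of age to switch on K-ras G12D. The KO tumours came from animals homozygous for a conditional deletion of Dnmt3a, a de novo DNA methyltransferase, and the WT tumours from animals with intact Dnmt3a. On each of 12 two-colour arrays a KO tumour was hybridised against a WT tumour. Dyes were swapped, so that KO was labelled with Cy5 on 6 arrays and with Cy3 on 6. By the ages and sexes in the labels the arrays form 4 pairs, called A to D here, and the labels give no unit for age. Pair A (4 arrays, slide 1) set a male KO animal of age 47.7 against a male WT animal of 42.6. Pair B (4 arrays, slide 2) set a male KO of 27 against a male WT of 41.3. Pair C (2 arrays, slide 3) set a male KO of 27 against a female WT of 47.6, and pair D (2 arrays, slide 3) a male KO of 29.1 against a male WT of 37.3. The KO animal was the older one in pair A alone, so genotype and age are partly confounded. Whether arrays of a pair hold separate tumours or animals is not in the labels. Pairs B and C give the same sex and age for the KO animal, and the labels do not say whether they share it. The p-values given here therefore refer to the spread between these arrays, part of which may be technical. Cre reaches only cells that the virus infects, and a bulk tumour also holds host cells in which neither allele was recombined. In such samples fewer cells of a type and less RNA per cell cannot be told apart.

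Checks on the samples ran as follows. All 3 Dnmt3a probes were lower in KO, with log2 ratios of -0.55, -0.25 and -0.21, and all 3 passed the test. Their ratio was below 0 on 12, 11 and 12 arrays. Markers of alveolar type 2 cells (7 of 7 genes) and of epithelium (4 of 4) were well above background for KO and WT RNA on all 12 arrays. Slide 3 stood apart: 63.6 to 73.5% of its probes were well above background on an array, against 86.2 to 90.1% on slides 1 and 2. On replicate 11, in pair D, markers of club cells and of ciliated cells, both airway types, had median log2 ratios of -5.82 and -3.38. On replicate 12, the other array of pair D, they went the other way, at 1.85 and 1.79.

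Windows of 250 bases upstream of the transcription start, from RefSeq on build GRCm38.p6, were on hand for 7 of the 10 genes (Axin2, Nkd1, Nkd2, Lef1, Tcf7, Sp5 and Rnf43). They were searched on both strands for the TCF/LEF consensus, spelled here as CTTTG followed by 2 letters that are each A or T. It occurred in the first window of 1 of these 7 genes, Sp5, with 2 matches, and in 14.9% of the first windows of 27025 genes. Lef1 had 1 match in the window of its most downstream start. The sequences of Axin2 and Nkd1, which were both lower in KO, are shown beside those of Lef1 and Sp5, which hold the matches. Each is written 5′ to 3′ on the gene's strand, and capitals mark the motif on either strand.
Axin2, chr11:108920099-108920348, plus strand: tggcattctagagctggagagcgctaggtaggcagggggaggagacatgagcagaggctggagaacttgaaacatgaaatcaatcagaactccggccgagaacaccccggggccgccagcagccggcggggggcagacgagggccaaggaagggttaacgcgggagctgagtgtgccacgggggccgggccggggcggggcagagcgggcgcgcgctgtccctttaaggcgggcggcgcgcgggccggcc
Nkd1, chr8:88527383-88527632, plus strand: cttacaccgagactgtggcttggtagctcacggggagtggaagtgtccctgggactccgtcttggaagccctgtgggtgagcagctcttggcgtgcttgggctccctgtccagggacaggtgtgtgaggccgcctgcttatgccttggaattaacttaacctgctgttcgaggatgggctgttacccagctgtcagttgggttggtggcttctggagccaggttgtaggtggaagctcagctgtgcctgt
Lef1, most downstream start, chr3:131156044-131156293, plus strand: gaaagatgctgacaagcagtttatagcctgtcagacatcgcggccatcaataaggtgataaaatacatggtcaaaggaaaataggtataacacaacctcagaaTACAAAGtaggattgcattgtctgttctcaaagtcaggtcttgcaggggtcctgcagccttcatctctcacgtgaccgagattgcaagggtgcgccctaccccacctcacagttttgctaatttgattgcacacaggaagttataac
Sp5, chr2:70474673-70474922, plus strand: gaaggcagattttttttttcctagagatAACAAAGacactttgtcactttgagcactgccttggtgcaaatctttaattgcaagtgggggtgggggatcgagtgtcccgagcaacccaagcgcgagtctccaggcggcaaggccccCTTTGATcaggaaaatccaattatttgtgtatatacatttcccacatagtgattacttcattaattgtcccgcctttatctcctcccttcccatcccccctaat
The matches in Sp5 began 222 and 104 bases before the start, and the match in Lef1 began 147 bases before it. The number of CG dinucleotides, the sites at which Dnmt3a methylates DNA, ranged from 6 to 37 over the first windows of the 7 genes, against a median of 6 over all genes. Axin2 held 24 and Tcf7 held 37, while Nkd1 and Sp5 held 6 each. The window of the other listed Tcf7 start held 15. Whether a window overlaps an exon of another transcript of its gene was not checked. Methylation itself was not analysed here, and a match or its absence in these windows is a description of the letters alone.

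Of the 14 kept probes, 5 were lower in KO at an adjusted p under 0.05 and 0 were higher (limma over all kept probes, Benjamini-Hochberg). The 5 probes belong to 4 genes: Axin2, Nkd1, Lef1 with 2 probes, and Tcf7 with 1 of its 2. Across all kept probes 5.72% were called, 2.88% as lower and 2.83% as higher. At an unadjusted p under 0.05 there were 8 of the 14, each with a ratio below 0, and 7455 of 35562. The median log2 ratio was -0.18 over the 14 probes and -0.0026 over all kept probes. When each gene was represented by its brightest kept probe, 3 of the 10 genes fell (Axin2, Nkd1 and Lef1) and none rose, against 3.49% of 20597 genes that fell. Tcf7 leaves this count because its called probe is the dimmer one. Probes of 1 gene share their samples, so the 5 calls are not independent.

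**Figure D1:**
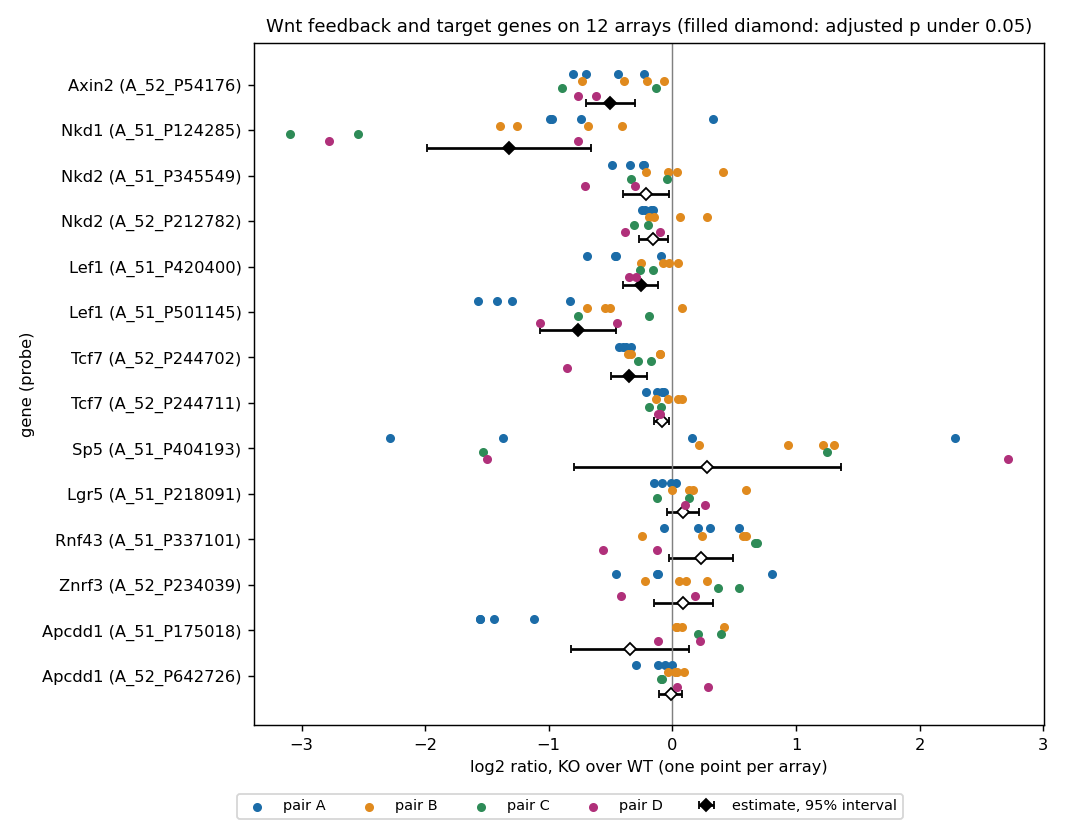
Log2 ratio of KO over WT (horizontal axis) for the 14 kept probes (vertical axis), 1 point per array, coloured by pair. Diamonds are the estimates with 95% intervals, filled at an adjusted p under 0.05: Axin2 lies below 0 on all 12 arrays, Apcdd1 (A_51_P175018) lies far below 0 on the arrays of pair A only, and Sp5 spans -2.28 to 2.72.

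Axin2 encodes the inducible scaffold of the β-catenin destruction complex and is a widely used readout of canonical Wnt signalling. It has 1 probe (A_52_P54176, chr11:109059707-109059766 on build mm7, as annotated in the files), well above background for KO and WT RNA on all 12 arrays. Its log2 ratio of KO over WT was -0.89 at the lowest, -0.53 at the median and -0.068 at the highest. KO RNA was thus dimmer than WT RNA on every array. The normalized log2 intensity ran from 6.69 to 7.97 for KO and from 7.28 to 8.74 for WT, and these ranges overlapped between arrays. The estimate was -0.50 ± 0.091 (SE, 12 arrays; 95% interval -0.70 to -0.30), a level 1.42-fold lower in KO, with a limma adjusted p of 0.0107. By pair it was -0.54 in A, -0.35 in B, -0.43 in C and -0.77 in D, and the F test between pairs had an adjusted p of 0.784. The call ended at an estimate of -0.48 (adjusted p = 0.0818) without pair A, and at -0.52 (adjusted p = 0.0805) when each pair counted as 1 value. Agilent's processed signals gave a larger difference of -0.82 (adjusted p = 0.00698), and local backgrounds as deposited gave -0.34 (adjusted p = 0.0601).

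Nkd1 and Nkd2, the mouse Naked cuticle proteins, bind Dishevelled and act as feedback antagonists of the Wnt signal. Nkd1 had the largest difference among the 14 probes. On its 1 probe (A_51_P124285, chr8:87184514-87184573 on mm7) the log2 ratio was -3.09 at the lowest, -0.98 at the median and 0.33 at the highest. Replicate 1, in pair A, was the only array above 0. The signal was well above background on all 12 arrays for both RNAs, and the normalized log2 intensity ran from 11.8 to 14.1 for KO and from 12.8 to 15.97 for WT. The estimate was -1.32 ± 0.30 (SE, 12 arrays; 95% interval -1.99 to -0.66), 2.50-fold lower in KO, with a limma adjusted p of 0.0294. The 3 lowest arrays were both of pair C, at -3.09 and -2.54, and replicate 12 of pair D, at -2.78. By pair the estimate was -0.59 in A, -0.94 in B, -3.06 in C and -1.53 in D (F test between pairs, unadjusted p = 0.0122, adjusted p = 0.260). The plain means of the arrays, without the dye term, were -2.82 in C and -1.77 in D. The 2 arrays of pair D differed widely, at -0.77 and -2.78. Nkd1 lost its call when replicate 2, 3, 7, 9 or 12 was left out (estimates -1.36 to -1.17, adjusted p 0.0505 to 0.0597), and when any 1 pair was (-1.65 to -0.91, adjusted p 0.0638 to 0.0961). Without slide 3 it was smaller, at -0.77 (adjusted p = 0.0476).

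Nkd2 did not pass the test on either probe. Its brighter probe (A_51_P345549) had log2 ratios of -0.70 at the lowest, -0.23 at the median and 0.41 at the highest, below 0 on 10 of 12 arrays. The estimate was -0.21 ± 0.085 (SE; 95% interval -0.40 to -0.027; limma adjusted p = 0.173). The dimmer probe (A_52_P212782), well above background for KO RNA on 7 arrays and for WT RNA on 9, gave -0.15 ± 0.055 (adjusted p = 0.129) and was also below 0 on 10 arrays. The brighter probe was at -0.32 in pair A, 0.050 in B, -0.10 in C and -0.59 in D. Its 2 arrays above 0 were both of pair B. Without pair B both probes passed, at -0.34 (adjusted p = 0.0477) and -0.22 (adjusted p = 0.0401). The difference between Nkd1 and Nkd2 was not tested.

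**Figure D2:**
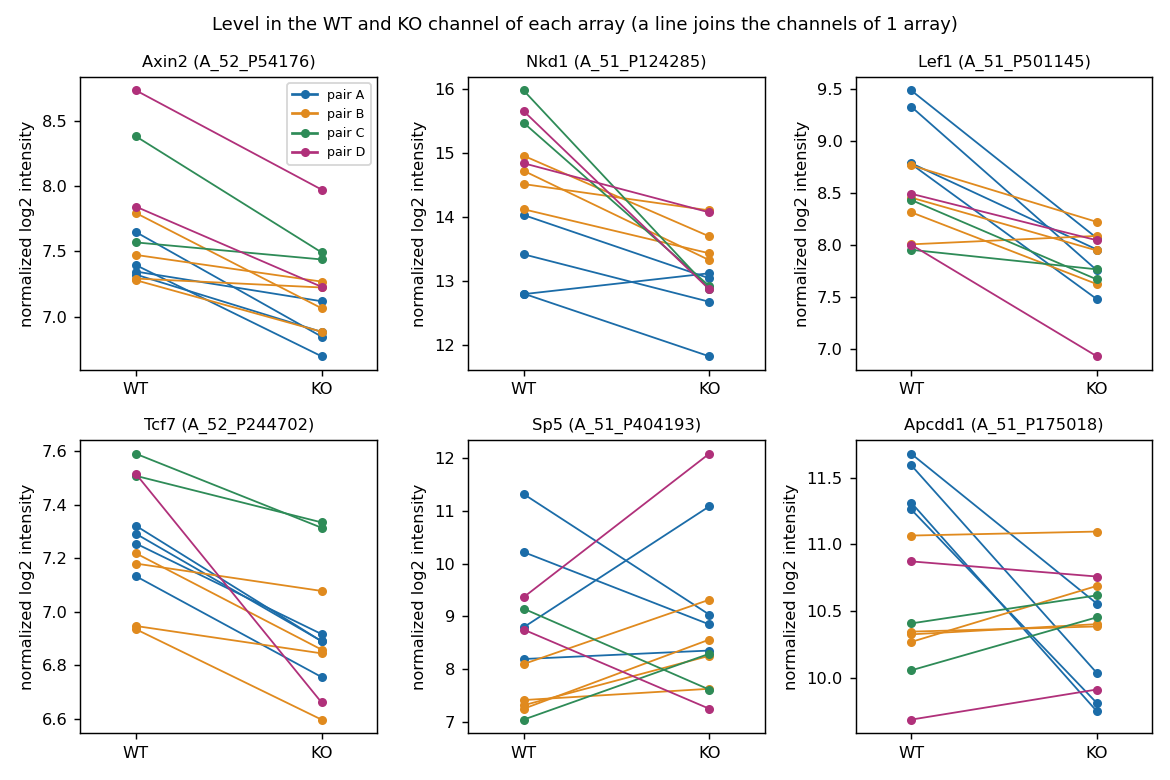
Normalized log2 intensity (vertical axis) of WT and KO RNA on each array for 6 probes, with a line joining both channels of 1 array, coloured by pair. For Axin2 every line falls from WT to KO, for Nkd1 and Lef1 all but 1 fall, for Sp5 lines cross in both directions, and for Apcdd1 the 4 lines of pair A fall steeply while those of the other pairs stay nearly level.

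Lef1 and Tcf7 encode 2 of the transcription factors through which β-catenin acts, and both are also known as targets of the pathway. Both are abundant in T cells as well. The brighter Lef1 probe (A_51_P501145, chr3:131060609-131060668 on mm7) had log2 ratios of -1.57 at the lowest, -0.73 at the median and 0.081 at the highest. Replicate 8, in pair B, was the only array above 0, and the 3 lowest arrays, from -1.57 to -1.30, were all of pair A. The estimate was -0.76 ± 0.14 (SE, 12 arrays; 95% interval -1.07 to -0.45), 1.70-fold lower in KO, with a limma adjusted p of 0.0118. By pair it was -1.28 in A, -0.42 in B, -0.27 in C and -0.97 in D (F test between pairs, unadjusted p = 0.00673, adjusted p = 0.210). The plain means of the arrays, without the dye term, were -0.48 in C and -0.76 in D. Without pair A it was -0.52 and lost its call (adjusted p = 0.0901), as it did at -0.73 with each pair as 1 value (adjusted p = 0.151).

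The second kept Lef1 probe (A_51_P420400, chr3:131041424-131059585 on mm7) lay near background, well above it for KO RNA on 9 arrays and for WT RNA on 12. Its log2 ratio ran from -0.69 to 0.046 with a median of -0.26, and 11 of 12 arrays were below 0. The estimate was -0.26 ± 0.065 (SE; limma adjusted p = 0.0421), and leaving out any 1 of 8 arrays ended the call. The third Lef1 probe (A_52_P333110) was well above background for KO RNA on 1 array and for WT RNA on 0, so no fold is given.

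For Tcf7 the probe that passed (A_52_P244702, chr11:52209369-52209428 on mm7) was below 0 on all 11 arrays that measured it. Replicate 11 is missing because its spot was marked as an outlier, and the fit drops it. The log2 ratio was -0.85 at the lowest, -0.34 at the median and -0.10 at the highest, and 10 of the 11 values lay between -0.43 and -0.10. The estimate was -0.35 ± 0.066 (SE; 95% interval -0.50 to -0.21), 1.28-fold lower in KO, with a limma adjusted p of 0.0138. The lowest value belonged to replicate 12, the 1 array left in pair D; without it the estimate was -0.29 (adjusted p = 0.0149). The call ended without pair A, at -0.34 (adjusted p = 0.127), and at -0.19 with local backgrounds as deposited (adjusted p = 0.0523), while Agilent's processed signals gave -0.84 (adjusted p = 0.0299). The other Tcf7 probe (A_52_P244711) was below 0 on 10 of 12 arrays at -0.088 ± 0.029 (SE; adjusted p = 0.105). The mean of both probes as 1 value for the gene was -0.21 (adjusted p = 0.0167).

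Since T cells express Lef1 and Tcf7, T cell markers were set beside them. Of 12 T cell markers, all kept, 0 passed the test in either direction (limma; 2 at an unadjusted p under 0.05), and their median log2 ratio was -0.080. The median over the markers ran from -0.39 to 0.35 on single arrays and was below 0 on 9 of 12. The summed linear level of the 12 markers was between 3613 and 5576 for KO and between 4133 and 9354 for WT, so the groups overlapped. Of the 12 markers 10 had a log2 ratio below 0, and 6 were well above background for both RNAs on every array. Cd3e, a subunit of the T cell receptor complex, was at -0.076 ± 0.046, Cd3d, another subunit, at -0.33 ± 0.18, Il7r, the interleukin 7 receptor, at -0.53 ± 0.18 and Thy1, a surface protein of T cells and fibroblasts, at -0.64 ± 0.22 (SE). Averaged over the arrays of a pair, the T cell marker median was -0.042 in A, -0.081 in B, -0.050 in C and -0.34 in D. The brighter Lef1 probe was lowest in pair A, at -1.28, and next lowest in pair D, at -0.97. The called Tcf7 probe was lowest in pair D. The part of T cells in the Lef1 and Tcf7 values was not tested.

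Endothelial markers were also lower in KO. Whether they varied with the called genes from array to array was not tested. Of 10 endothelial markers 8 fell and 0 rose, where 3.49% of all genes fell and 3.03% rose. The median log2 ratio of the markers was -0.73, and their median was below 0 on all 12 arrays, between -1.36 and -0.49. Their summed linear level was 15214 to 22082 for KO and 26487 to 47342 for WT. These ranges did not overlap, and how often that happens over all genes was not counted. All 10 were well above background for both RNAs on all 12 arrays. The part of endothelial cells in the values of Axin2, Nkd1, Lef1 and Tcf7 was not tested. Among 8 fibroblast markers 1 rose and 1 fell, with a median of -0.30. Alveolar type 2 markers had a median of 0.10 (1 of 7 fell), macrophage markers of -0.24 (0 of 6 called) and markers of cycling cells of 0.28 (0 of 5 called).

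**Figure D3:**
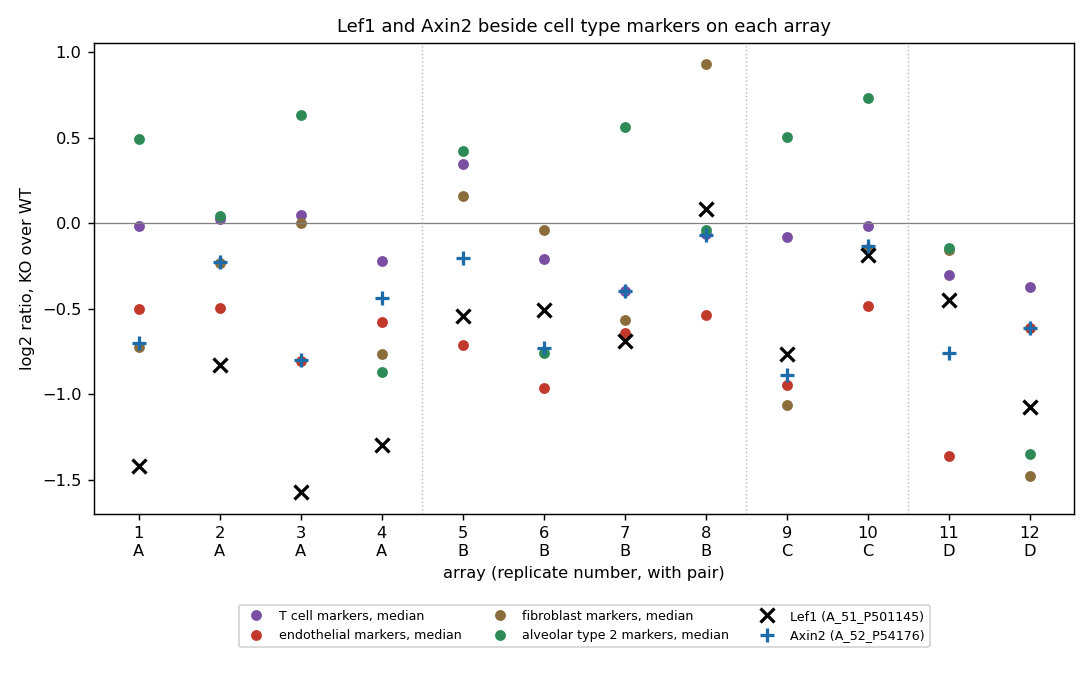
Log2 ratio of KO over WT (vertical axis) on each array (horizontal axis, with its pair) for Lef1 and Axin2 and for the median over markers of 4 cell types. Endothelial medians lie between -1.36 and -0.49 on all arrays, T cell medians between -0.39 and 0.35, and the lowest Lef1 values are in pair A.

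Sp5, a zinc finger factor and a direct target of Wnt signalling, varied more between arrays than any other gene of the group. On its 1 probe (A_51_P404193) the log2 ratio was -2.28 at the lowest, 0.58 at the median and 2.72 at the highest. It was above 0 on 8 arrays and below 0 on 4. In pair A the 4 arrays read 2.29, -2.28, 0.16 and -1.37, and in pair D the 2 arrays read -1.50 and 2.72. Arrays of 1 pair thus gave opposite signs in pairs A, C and D, while pair B was above 0 on all 4 arrays, between 0.21 and 1.31. In pair A KO carried Cy5 on the arrays above 0 and Cy3 on those below 0. Within pair C, and within pair D, the arrays shared 1 dye orientation. The part of the dye in the spread of Sp5 was not tested. The normalized log2 intensity ran from 7.25 to 12.1 for KO and from 7.04 to 11.3 for WT, so high and low Sp5 occurred in both groups. The SD within pairs was 1.78, above that of 99.8% of kept probes. The estimate was 0.28 ± 0.50 (SE; 95% interval -0.80 to 1.36; limma adjusted p = 0.811), an interval wide enough to hold a fall or a rise. Without replicate 12 the estimate was -0.027.

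The remaining genes code for receptors and for regulators at the cell surface. Rnf43 and Znrf3 encode transmembrane ubiquitin ligases that remove Wnt receptors from the surface and so form a negative feedback loop. Rnf43 (A_51_P337101) had log2 ratios of -0.56 at the lowest, 0.27 at the median and 0.68 at the highest, above 0 on 8 of 12 arrays. The estimate was 0.23 ± 0.12 (SE; 95% interval -0.031 to 0.49; limma adjusted p = 0.303), and both arrays of pair D were below 0 while both of pair C were above 0.66. Its second probe (A_52_P78183) was well above background for KO RNA on 2 arrays and for WT RNA on 0, so no fold is given. Znrf3 (A_52_P234039) ran from -0.46 to 0.81, with an estimate of 0.087 ± 0.11 (SE; 95% interval -0.15 to 0.33; adjusted p = 0.721). For neither ligase was a difference detected at this number of arrays.

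Lgr5, a receptor for R-spondins and a stem cell marker in the intestine, lay close to background. Its kept probe (A_51_P218091) was well above background on 7 arrays for KO RNA and on 7 for WT RNA. The log2 ratio ran from -0.15 to 0.59, with an estimate of 0.087 ± 0.060 (SE; 95% interval -0.043 to 0.22; limma adjusted p = 0.457). The other Lgr5 probe (A_52_P30169) was well above background for KO RNA on 0 arrays and for WT RNA on 1, so no fold is given.

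Apcdd1, a membrane glycoprotein that binds Wnt and its receptor and inhibits the pathway, differed between pairs. On its brighter probe (A_51_P175018) the 4 arrays of pair A read -1.12, -1.55, -1.45 and -1.56. The 4 arrays of pair B read 0.42, 0.030, 0.038 and 0.076, those of pair C 0.21 and 0.40, and those of pair D -0.11 and 0.23. The pair A arrays were thus low and did not overlap with the other 8. By pair the estimate was -1.42 in A, 0.14 in B, 0.19 in C and 0.17 in D, and the F test between pairs had a limma adjusted p of 0.00345. Of 35347 probes in that test, 0.368% passed at an adjusted p under 0.05. The estimate over all arrays was -0.34 ± 0.22 (SE; 95% interval -0.82 to 0.14; adjusted p = 0.421). The second probe (A_52_P642726), well above background on 8 arrays for KO RNA and on 8 for WT RNA, was at -0.014 ± 0.042 (SE; adjusted p = 0.899), with an adjusted p of 0.584 between pairs. Pair A alone had an older KO animal and alone lay on slide 1, and the pair of animals, the order of ages and the slide cannot be told apart.

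**Figure D4:**
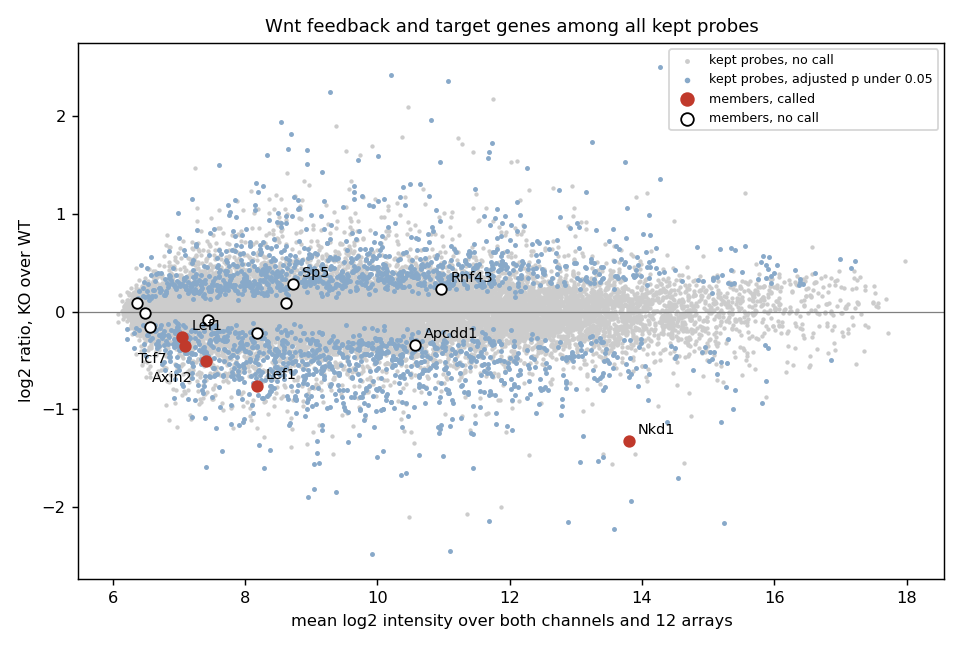
Log2 ratio of KO over WT (vertical axis) against mean log2 intensity (horizontal axis) for all 35562 kept probes, with the 14 probes of the Wnt feedback and target genes as large circles. The 5 called probes (red) lie below 0, between -0.26 and -1.32, and Nkd1 lies farthest from 0.

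The rest of the pathway was read from 4 lists, each gene by its brightest kept probe, against 6.53% of all genes called (3.03% as higher and 3.49% as lower). In the destruction complex and its helpers 1 of 14 genes rose and 0 fell, with a median log2 ratio of 0.052. The gene that rose was Csnk1e, casein kinase 1 epsilon, at 0.49 ± 0.11 (SE; limma adjusted p = 0.0282), while its other kept probe was at 0.013. Ctnnb1, β-catenin itself, was at 0.082 ± 0.12 and Apc at 0.096 ± 0.14 (SE, limma adjusted p of 0.754 and 0.762). Gsk3b, a kinase of the complex, was at -0.14 ± 0.094 and Axin1, the constitutive counterpart of Axin2, at -0.24 ± 0.088 (SE, limma adjusted p of 0.451 and 0.137).

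Among the Dishevelled proteins, the other TCF factors and the nuclear cofactors, 2 of 18 genes rose and 0 fell, with a median of 0.025. Pygo1, a cofactor that recruits the β-catenin complex to chromatin, rose by 0.59 ± 0.11 on the log2 scale (SE; limma adjusted p = 0.0146). Tle2, a Groucho corepressor that TCF factors bind in the absence of β-catenin, rose by 0.48 ± 0.12 (adjusted p = 0.0383). Both were above 0 on 11 of 12 arrays. Tle4, another such corepressor, at 0.58 ± 0.18 (adjusted p = 0.0895), and Tcf7l1, a TCF factor that mostly represses, at 0.52 ± 0.21 (adjusted p = 0.177), did not pass. Of the R-spondins and their receptors Lgr4 and Lgr6, 0 of 6 passed (0 at an unadjusted p under 0.05), with a median of -0.028. Only 1 of the 6 was well above background for both RNAs on all 12 arrays, so low signal limits this reading.

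Of 28 further Wnt target genes 24 were kept, of which 1 rose and 3 fell, with a median of -0.081. Fst, follistatin, an activin antagonist, fell by 0.86 ± 0.22 on the log2 scale (limma adjusted p = 0.0411). Wisp2, a secreted protein of the CCN family, fell by 0.78 ± 0.18 (adjusted p = 0.0307), and Ccnd1, cyclin D1 of the early cell cycle, by 0.58 ± 0.15 (adjusted p = 0.0451). The 3 were below 0 on 11, 11 and 10 of 12 arrays. Id2, an inhibitor of basic helix-loop-helix factors, rose by 0.99 ± 0.26 (adjusted p = 0.0496), while its other kept probe, at 0.73, was not called. Sox9, a transcription factor of the distal lung epithelium in development, was at 1.78 ± 0.49 and missed the threshold (adjusted p = 0.0562), with 11 of 12 arrays above 0. The other kept Sox9 probes were at 0.19 and 1.60, and neither was called. Myc was at 0.31 ± 0.14 (adjusted p = 0.225), and Notum, a secreted Wnt inhibitor, at -0.13 ± 0.055 (adjusted p = 0.208). The lists were drawn up with earlier results known, so their counts are descriptions.

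**Figure D5:**
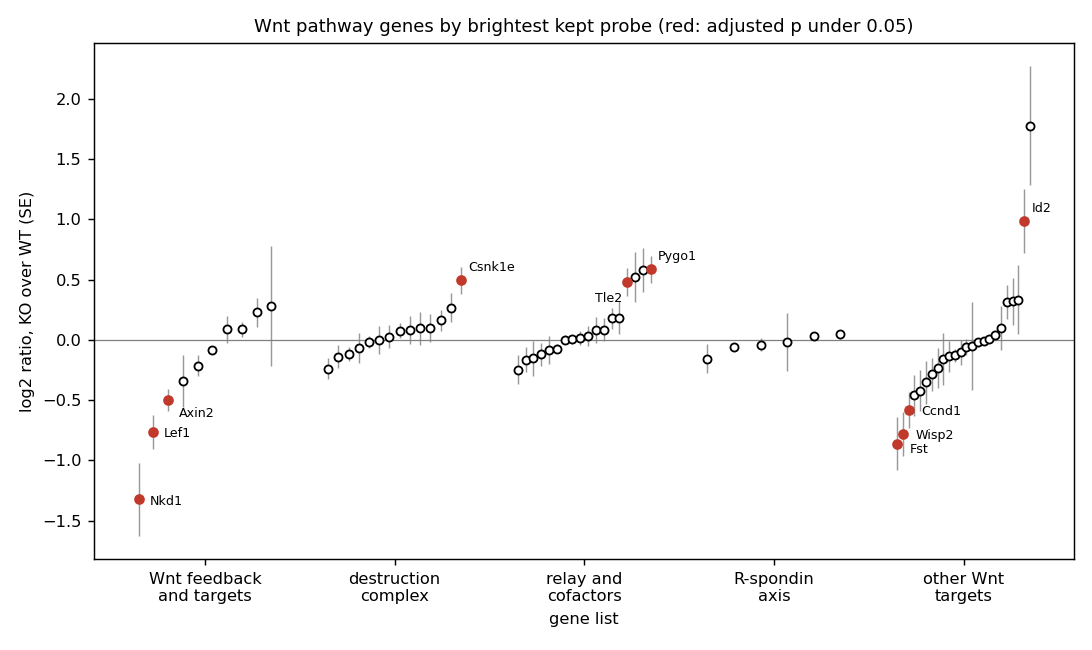
Log2 ratio of KO over WT with SE (vertical axis) for the kept genes of 5 lists (horizontal axis), ordered by value within a list, each gene by its brightest kept probe. Red points passed at an adjusted p under 0.05: 3 Wnt feedback and target genes fell, 1 and 2 genes rose in the next 2 lists, none passed on the R-spondin axis, and 3 fell and 1 rose among the other targets.

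The genes whose ratios ran most alike over the 12 arrays were sought among 16606 named genes, as a description, since arrays of a pair are not independent and all ratios of an array share its loess curve. For Axin2 they were Centd1 (Pearson r = 0.924), Adora2b (0.877) and Vamp3 (0.877). For Nkd1 they were Slc5a11 (r = 0.894), Ptpn22 (0.880) and Cyp3a13 (0.880). For the brighter Lef1 probe they were Clcn7 (r = 0.872), Nts (0.869) and Usf1 (0.850), and for the brighter Tcf7 probe, which was not the called one, Ftdc2 (r = 0.898), Itga10 (0.881) and Rad54l (0.874). None of the other Wnt feedback and target genes was eligible for these comparisons. Of the 12 genes named, Ptpn22, a phosphatase of lymphocytes, at -0.49 ± 0.13 (SE; limma adjusted p = 0.0434), and Clcn7, a lysosomal chloride transporter, at -0.44 ± 0.078 (adjusted p = 0.00988), passed the test.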

How the data were processed

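RNA of flash-frozen lung tumours was amplified from oligo-dT with the cyanine dyes incorporated, per the labels' protocols. The deposited spot intensities and local background intensities are the output of Agilent Feature Extraction 10.1.1.1 (protocol GE2-v5_10_Apr08, array design 014868), not normalized, per the file headers. Agilent also gives processed intensities, with background subtracted and dyes normalized, per the file headers. Flags for spots, such as well above background, are deposited as 0 or 1. The series matrix holds the authors' log2 ratios; the submitters' processing notes name limma. Set against the scanner values over 41174 probes, each of its columns ran as KO over WT on the log2 scale (slope 1.003 to 1.057, column median -0.011 to 0.0078). How the authors centred it was not given in the sources used here.

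R 4.3.3, limma 3.58.1 and data.table (version 1.17.8) were used. Mean signals were corrected with normexp (offset 50) and normalized by loess within each array, with weight 0 for control spots and for the 86 to 828 spots per array flagged as outliers. Local backgrounds flagged as outliers took the array's median for that dye. Outlier-flagged spots were left out of probe averages. Ratios were turned to KO over WT and fitted per probe with a dye term and a random block for the pair (consensus correlation 0.0794). An earlier processing estimated that correlation on red over green ratios, where dye-swapped arrays of a pair change sign (-0.024), so the turned ratios are used here. P-values were adjusted by Benjamini-Hochberg over 35562 kept probes. A second model gave each pair a coefficient beside a dye term, with an F test over 35347 probes that had values in every pair. The fit was tested on simulated data.

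Named are the 10 genes with all their probes, all Dnmt3a probes, up to 4 genes of smallest p per list described and any called one, and for Axin2 and each gene with a called probe the 3 genes of highest correlation. A few genes beyond that rule (Ctnnb1, Apc, Gsk3b, Notum, Myc, Cd3e) were named for their role after their values were seen. Markers of cell types other than T cells fall outside it, and they were counted by list and not named, also where called. Genes and lists were chosen with earlier results of these data known. The number of arrays limits the precision. Probe names come from the array annotation, and 22951 probes were named through an accession. Alternatives covered background, normalization, filter, dye term, block, weights, probes per gene, the series matrix and arrays left out.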

Additional observations from a re-analysis of the deposited data

Results flagged for a closer look

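Apcdd1 (A_51_P175018) stood out because its ratio differed between the 4 pairs of animals by a test of that difference (limma F test, adjusted p = 0.00345), with -1.42 in pair A and 0.14 to 0.19 in pairs B, C and D. The adjusted p was 0.00343 with no filter on dim probes, 0.00235 with Agilent's processed signals and 0.00312 with the ratios of the series matrix. The normalized log2 intensity in pair A was 11.3 to 11.7 for WT and 9.75 to 10.6 for KO, against 9.69 to 11.1 for WT in the other pairs. Within pair B the same probe had 1 array far from the other 3: replicate 5 was at 0.42, and the next highest array was at 0.076. That gap took up 0.881 of the range of the 4 arrays. Of 28 groups of 4 arrays examined this was the 1 that stood out, and chance gives about 1 in 20.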

How the results depend on the processing

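The 14 kept probes were refitted under 37 other settings, which gave 507 values where the probe could be fitted, of which 439 kept their direction and side of the threshold, 51 lost a call, 4 gained one and 13 changed sign. None of the 181 values of the 5 called probes changed sign. Normalizing intensities between arrays (Aquantile), among these settings, leaves ratios unchanged. Its values therefore equal the main ones by construction, and they count among those kept. Axin2 kept its call in 31 of 37 settings, the brighter Lef1 probe in 32 of 37, Tcf7 (A_52_P244702) in 28 of 35, Nkd1 in 23 of 37 and the second Lef1 probe in 16 of 35. No single array ended the call of Axin2, of the brighter Lef1 probe or of Tcf7 (A_52_P244702).

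Of all kept probes 2033 were called and of the 14 probes 5. With median centring in place of loess these counts were 486 and 2, and with each pair averaged to 1 value 51 and 0 (5459 at an unadjusted p under 0.05). With no block there were 3269 probes called, and with the pair block on red over green ratios 3228. Local backgrounds as deposited gave 1525 calls, 940 higher and 585 lower against 1008 and 1025, and 2 of the 14 probes. With genes read by their brightest probe 3 of 10 were called. Leaving out single arrays gave 1053 to 2687 calls and 3 to 6 of the 14; the counts moved by over 1.5 times without replicate 2 (1342), 3 (1085), 7 (1262) or 12 (1053). Without pair A there were 577 calls and 0 of the 14, without pair B 1191, without pair C 1183 and 3, without pair D 1268 and 3, and without slide 3, a setting added after the data were seen, 1256. Within slide 1, 2 and 3 alone, where only 4 arrays enter, there were 0, 1 and 0 calls (5288, 5245 and 5665 at an unadjusted p under 0.05, limma) and 0, 0 and 0 of the 14 probes.

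The sign changed for Sp5 without replicate 12 (-0.027; single arrays left out gave -0.027 to 0.51), without pair B (-0.028) and within slide 1 (-0.30), for Lgr5 within slide 1 (-0.052), and for both Nkd2 probes within slide 2 (0.050 and 0.0022). For Apcdd1 A_51_P175018 it changed without pair A (0.16) and within slide 2 (0.14) and slide 3 (0.18). For A_52_P642726 it changed without replicate 1 (0.0058; single arrays left out gave -0.040 to 0.0058), without pair A (0.034) and within slide 2 (0.028) and slide 3 (0.039). None of these values passed the test, and the cause was not tested. Signal over background limits Lgr5, the dimmer probes of Lef1, Nkd2 and Apcdd1, most genes of the R-spondin axis, and all of slide 3. Each ratio already pairs the KO and the WT sample of 1 array, and replicate numbers pair no further samples. The pair of animals entered as the block. The slide as a random block, and pairs B and C as 1 block, both added after the data were seen, called 5 of the 14 probes each.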
